A study of Mus musculus with 2 samples.

Results

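Captured methylated DNA of the mouse testis was counted in 100 bp windows of the genome in 2 libraries, and the windows described here hold a single CpG and were at least 4-fold higher in the library of the Kaiso knockout. The members were chosen on the autosomes, chromosomes 1 to 19, as windows with 1 CpG, at least 1 wildtype count and a knockout RPKM (reads scaled to window length and library size) at least 4 times the wildtype RPKM. This gave 55160 members among 917258 autosomal windows with 1 CpG and a wildtype count, and among 2537435 windows listed for the whole genome. The ratio and both counts of a member were therefore used to choose it and are given as a description.

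The wildtype library came from a testis of a C57BL/6 mouse, and the other library from a testis of a C57BL/6 male labelled as Kaiso KO, sterile and offspring of generation 3. The ages, the number of animals and the structure of the deleted allele are not given in the sources used here, and the description of the knockout sample contradicts itself by also calling its testis WT, so its group rests on the genotype label. With 1 library per group no difference could be tested, and the intervals below cover counting error only. DNA of the whole organ was captured, so methylation in more of its cells and of more copies per cell cannot be told apart. A difference in the makeup of cell types, or in the capture of the 2 libraries, cannot be told apart from these either.

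Methylation of mammalian DNA is placed on the cytosine of CpG dinucleotides, which are sparse over most of the genome and dense in CpG islands, many of them at gene starts. The methyl-CpG binding domain of MBD2 holds a fragment through its methylated CpGs, and fragments with several of them are bound more firmly than those with 1. A captured fragment of up to 500 bp, the upper size in the labels' protocol, is longer than a window and can carry CpGs that lie outside the window in which it is counted. Kaiso, the product of Zbtb33, is a zinc finger protein that binds methylated CpGs and the sequence TCCTGCNA.

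How such a window looks is shown by 4 promoters, those of the genes with the most members whose start site in RefSeq (GRCm38.p6, the assembly of mm10) is the outer end of the gene and has a member in the bases before it. Each line gives the 250 bases before the start site in the direction of transcription, with every CpG in capitals. The Ifne stretch is chr4:88880202-88880451 on the minus strand, that of Ankrd1 chr19:36119845-36120094 on the minus strand, that of Cldn17 chr16:88506979-88507228 on the minus strand and that of Lmod2 chr6:24597521-24597770 on the plus strand.
Ifne: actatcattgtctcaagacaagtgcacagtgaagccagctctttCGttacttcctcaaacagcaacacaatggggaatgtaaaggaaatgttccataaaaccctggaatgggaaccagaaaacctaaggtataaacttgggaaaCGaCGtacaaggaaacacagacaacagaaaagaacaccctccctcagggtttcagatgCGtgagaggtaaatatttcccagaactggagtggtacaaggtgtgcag
Ankrd1: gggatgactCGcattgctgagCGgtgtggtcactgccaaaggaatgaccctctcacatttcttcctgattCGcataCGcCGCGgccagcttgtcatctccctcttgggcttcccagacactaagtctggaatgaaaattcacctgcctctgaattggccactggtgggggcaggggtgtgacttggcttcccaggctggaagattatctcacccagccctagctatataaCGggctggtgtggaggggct
Cldn17: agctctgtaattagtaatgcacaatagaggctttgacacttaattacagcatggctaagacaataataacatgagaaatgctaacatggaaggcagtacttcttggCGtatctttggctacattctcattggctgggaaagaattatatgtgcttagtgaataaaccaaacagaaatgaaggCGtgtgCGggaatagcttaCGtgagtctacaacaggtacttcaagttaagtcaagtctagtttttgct
Lmod2: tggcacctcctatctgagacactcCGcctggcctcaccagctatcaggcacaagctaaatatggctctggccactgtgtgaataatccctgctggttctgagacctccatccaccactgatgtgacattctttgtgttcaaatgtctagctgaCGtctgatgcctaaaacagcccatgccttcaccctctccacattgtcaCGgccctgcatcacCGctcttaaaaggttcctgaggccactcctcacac

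In each of these promoters the member is 1 step of a longer stretch of windows that were high in the knockout library. At Cldn17, a claudin gene of tight junctions, the member covers bases 29 to 128 with its CpG at base 107, and it had 3 wildtype and 53 knockout counts. The next window towards the gene holds 3 CpGs and had 9 and 64 counts, and the window on the outer side, again with 1 CpG, had 2 and 36. At Lmod2, a leiomodin gene of striated muscle, the member (CpG at base 154) had 10 and 70 counts, between a single-CpG window with 6 and 60 and a window of 4 CpGs with 12 and 65. In both promoters the knockout counts of the member and of its richer neighbour lay close together.

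At Ifne, the gene of interferon epsilon, the CpG of the member stands at base 203 and the window had 1 wildtype and 19 knockout counts. Its neighbours held 3 CpGs with 2 and 32 counts, and 2 CpGs with 0 and 13 counts. At Ankrd1, an ankyrin repeat gene of cardiac muscle, the CpG of the member stands at base 231, and the window had 5 and 25 counts while the window over the upstream end of the stretch, with 7 CpGs, had 8 and 46. The sequence TCCTGCNA, searched on both strands, was in 0 of the 4 printed stretches.

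Over all 55160 members the median was 3 wildtype counts (quartiles 2 and 6, highest 78) and 31 knockout counts (quartiles 18 and 49, lowest 9, highest 472). RPKM had medians of 0.342 (wildtype) and 3.15 (knockout). The authors' relative methylation score, which sets the signal against the CpG density and with a scale not given in the sources used here, had medians of 0.0415 and 0.475. The members were thus windows with next to no wildtype signal and a moderate knockout signal. The 282355 other single-CpG windows that were higher in the knockout library, by less than 4-fold, had medians of 48 and 85 counts (RPKM 5.47 and 8.63), so the knockout signal of the members lay below theirs as well. The 579743 lower ones had medians of 26 wildtype and 8 knockout counts.

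Members made up 6.01% of the single-CpG windows with a wildtype count, against 7.58% at least 4-fold higher among autosomal windows with 2 CpGs and 15.2% among those with 5 or more, each counted over windows with a wildtype count. With windows at 0 wildtype counts included, the shares with 2 and with 5 or more CpGs were 8.59% and 17%. The median fold of the members was 7.12 (quartiles 5.12 and 10.7), 43.2% reached 8-fold and 10.9% reached 16-fold. Many of these folds are imprecise. Of the members 9405 (17.1%) rested on 1 wildtype count and 50.3% on 3 or fewer, and the 95% interval of the fold (exact Clopper-Pearson) started above 4 in 7519 (13.6%) and above 2 in 36142 (65.5%). The 1530 windows just inside the rule, at 4 to 4.1-fold, had medians of 7 and 32 counts, and the 873 just outside, at 3.9 to 4-fold, had 9 and 40.

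**Figure D1:**
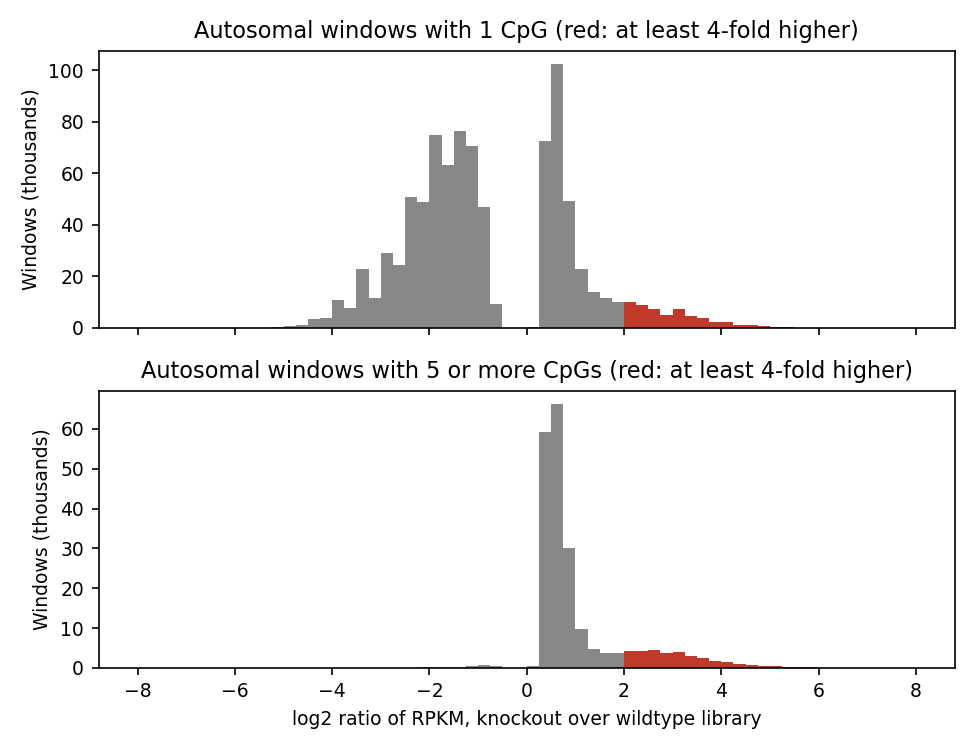
Number of autosomal windows with a wildtype count, in units of 1000, by the log2 ratio of knockout over wildtype RPKM, above for windows with 1 CpG and below for windows with 5 or more, with those at least 4-fold higher in red. The red windows are 6.01% of the single-CpG windows and form the upper tail of those higher in the knockout library. The bin from -0.25 to 0 held 0 single-CpG windows and parts these from the lower ones. Of all listed dense windows, 98.9% were higher in the knockout library.

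The table lists windows that passed an unadjusted p of 0.05, so a window that is absent is not known to be unchanged. The libraries held 87710791 wildtype and 98549116 knockout reads. In the targeted gene Zbtb33, on X from 38189793 to 38197046, 15 of 16 listed windows had the lower RPKM in the knockout, and their counts summed to 303 in wildtype and 83 in the knockout. That gene lies outside the autosomes and holds no member.

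CpG-dense DNA lay beside most members. A listed window with 5 or more CpGs stood within 1 kb of 33693 members, or 61.1% (Clopper-Pearson interval 60.7 to 61.5%). The share was 54.0% for the other higher single-CpG windows and 7.65% for the lower ones. The members therefore stood far from the lower windows and close to the other higher windows in this respect. Within 200 bp the order of the higher classes turned, with 31.5% of the members and 33.8% of the other higher windows. From more than 500 bp up to 2 kb, beyond the size of a fragment, the shares were 35.3%, 34.6% and 17.1%. A window with 3 or more CpGs lay within 1 kb of 95.01% of the members and of 94.1% and 52.2% of the other classes.

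The dense windows next to members were themselves different from other dense windows. The 26869 dense windows within 500 bp of a member had median counts of 7 in wildtype and 64 in the knockout, and 84.5% passed 4-fold, against the background of 17% (both shares, and those of dense windows below, include windows with 0 wildtype counts). These windows can share fragments with the member. The 6143 dense windows whose nearest member lay more than 500 bp and up to 1 kb away had medians of 11 and 72 counts, and 57.5% were at least 4-fold higher. At more than 1 kb and up to 2 kb the medians were 54 and 101 counts and the share 27.3%. Beyond 10 kb, the 146013 dense windows had 76 and 129 counts, and 4.31% were at least 4-fold higher.

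With distance from a member the medians of dense windows ran from 7 to 76 wildtype counts and from 64 to 129 knockout counts. Members were chosen for their ratio, so low wildtype counts beside them follow in part from the rule. Windows up to 500 bp away can also share fragments with a member. Dense windows near another higher single-CpG window, and with no member within 2 kb, numbered 123770. Their medians were 75 and 130 counts, and 3.19% were at least 4-fold higher. Read from the dense side, 26239 of the 37071 dense windows at least 4-fold higher (70.8%) had a member within 1 kb.

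The members can be graded by the most CpG-rich listed window within 1 kb. Beside 5 or more CpGs, the 33693 members had medians of 4 wildtype and 37 knockout counts. Beside 3 or 4 CpGs, 18717 members (33.9%) had 3 and 26 counts, and beside 2 CpGs, 1708 members (3.10%) had 2 and 14. Among members, the median counts of both libraries were thus higher where richer windows stood near. The median folds of these classes were 7.12, 6.82 and 6.23. Only 555 members (1.01%) had no other listed window within 1 kb, and their medians of 2 and 10 counts lie at the lowest counts that the table lists.

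Around the members, 76.2% of all listed windows within 1 kb were at least 4-fold higher. This share counts each member itself, which passes by the rule. Over all listed autosomal windows, those with 0 wildtype counts included, it was 9.66%. The share around members, without the member itself, was 87.8% at 100 bp and smaller farther away. It was 70.9% at 500 bp, 50.8% at 1 kb, 30.7% at 1.5 kb, 21.3% at 2 kb and 16.6% at 5 kb. Wildtype signal moved more than knockout signal over these distances. The median wildtype RPKM was 0.342 at the member, 0.798 at 500 bp, 1.14 at 1 kb, 3.31 at 2 kb and 3.88 at 5 kb. The median knockout RPKM was 3.15 at the member, 4.97 at 500 bp, 4.57 at 1 kb, 4.06 at 2 kb and 4.26 at 5 kb. In this profile over all members, then, the wildtype median changed more with distance than the knockout median. The low wildtype value at the member follows from the rule, and windows up to 500 bp away can share its fragments. The member holds 1 CpG, while listed windows held 2.7 on average at 100 bp and 2.35 at 5 kb. A pooled profile does not give the width of a single stretch.

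**Figure D2:**
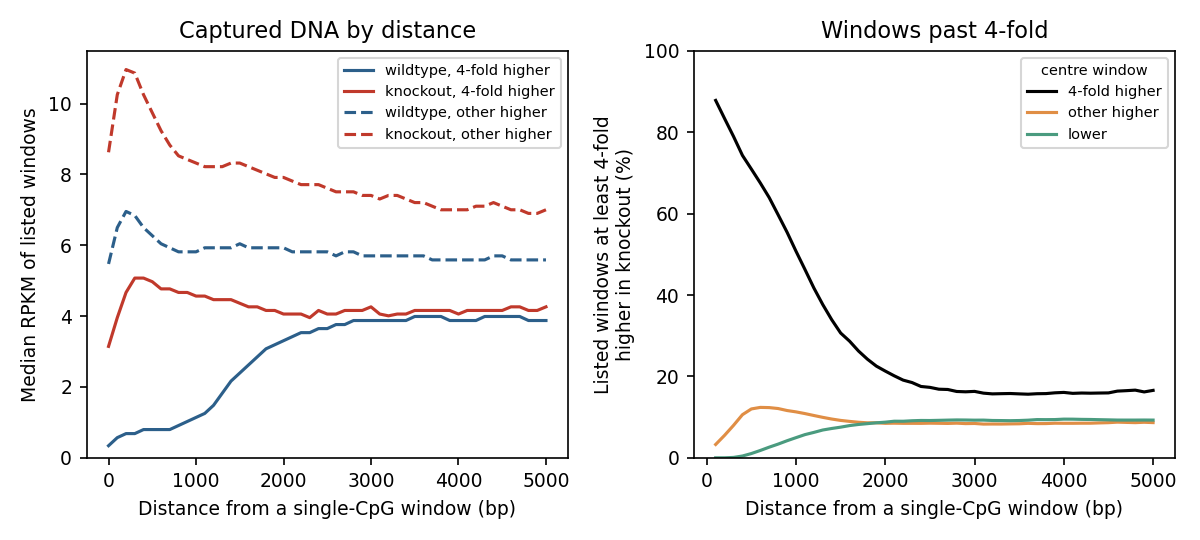
Median RPKM of listed windows (left) and the percentage of listed windows at least 4-fold higher (right) against distance in bp from a central single-CpG window, around members (solid) and other higher windows (dashed) on the left, and around members, other higher and lower windows on the right. Around members the wildtype median climbs from 0.342 to 3.88 within 5 kb while the knockout median stays between 3.15 and 5.07, and the share of 4-fold higher windows drops from 87.8% at 100 bp to 16.6% at 5 kb.

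Windows at least 4-fold higher, of any CpG count, were joined into blocks where their gaps did not exceed 500 bp. Of 44746 blocks, 29662 (66.3%) held a member, with a median of 6 windows and a median width of 600 bp, the widest reaching 7600 bp. A dense window was part of 46.2% of the blocks with a member, and in 12.4% the member stood alone. In blocks of 5 or more windows, single-CpG windows were the first or last window in 37.4% of cases, against 26.2% for windows with 2 CpGs, 16.8% for 3 or 4 and 10.2% for 5 or more. Median counts in these blocks were 3 and 33 with 1 CpG, 4 and 41 with 2, 5 and 51 with 3 or 4, and 6 and 61 with 5 or more. Single-CpG windows thus stood more often at the edges of such blocks, and both libraries were lower in them than in the dense windows.

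The members stood close to each other. A single-CpG window whose nearest other member lay within 500 bp was itself a member in 68.8% of 50663 cases. The share was 28.0% at more than 500 bp and up to 1 kb, beyond the size of a fragment, 6.08% up to 2 kb, 2.40% up to 5 kb and 1.53% beyond 10 kb. Against the 6.01% of all single-CpG windows, members were therefore frequent within 1 kb of another member and rare beyond 2 kb. Members were rare near lower windows: a single-CpG window with a lower one within 500 bp was a member in 0.215% of cases. Windows that near can share fragments. At more than 500 bp and up to 1 kb from the nearest lower window the share was 5.51%.

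Joined at gaps of up to 1 kb, the members formed 29755 clusters, of which 15371 held 1 member, 7880 held 2 and 6504 held 3 or more. The clusters of 3 or more had 24029 members (43.6%), a median width of 800 bp and at most 11 members in 1 cluster. The other higher windows had 34.7% of their number in such clusters and the lower ones 53.9%. This share depends on how many windows a class holds, and its order between the members and the other higher windows turned with a fold of 8, with wildtype minimums of 3 and 10 and with gaps of up to 2 kb.

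The 15 clusters with the most members held 9 to 11 each. In and next to their spans, 408 of 488 listed windows (83.6%) and 54 of 58 dense windows were at least 4-fold higher. The 488 include the members themselves, which pass by the rule. A protein-coding gene overlapped 7 of the 15. The cluster with the most knockout counts covered 4200 bp of chromosome 2, from 165394901 to 165399100, in Ocstamp, a transmembrane protein gene of osteoclast fusion. Its 11 members had 3 to 16 wildtype counts (median 8) and 29 to 74 knockout counts (median 61), and 8 of its 9 dense windows were at least 4-fold higher.

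The other cluster of 11 members lay far from genes, on chromosome 5 from 79809801 to 79812600, with the nearest protein-coding gene, the latrophilin gene Adgrl3, 1206485 bp away. Its members had 1 to 7 wildtype counts and 15 to 39 knockout counts, and its 2 dense windows, of 5 CpGs at most, had medians of 7 and 49.5 counts. A cluster of this size thus also occurred far from any annotated protein-coding gene.

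Among the clusters of 10, one lay in C9, the gene of a terminal complement component, on chromosome 15 from 6465601 to 6468200. Its members had 1 to 10 wildtype and 9 to 69 knockout counts. All 24 listed windows in and next to its span, the members included, were at least 4-fold higher. The cluster 96 bp from Galr1, a galanin receptor gene, on chromosome 18 from 82389001 to 82392400, had 1 to 11 and 11 to 68 counts. In the latter the count ranges of the libraries met at 11. A further 2 clusters of 10 lay 30806 bp from Arl15 and 262464 bp from Atpsckmt.

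Of the 8 clusters of 9 members, those in Synpo2, an actin-binding protein gene, in Zfp791, a zinc finger gene, in S1pr1, a sphingosine-1-phosphate receptor gene, and in Phkg1, a phosphorylase kinase subunit gene, overlapped a gene. In Synpo2, on chromosome 3 from 123111401 to 123114900, members had 1 to 8 wildtype and 18 to 95 knockout counts. The 36 listed windows in and next to this span, 7 of them dense, were all at least 4-fold higher, the members included. In Zfp791, on chromosome 8 from 85110801 to 85114000, they had 2 to 11 and 12 to 74 counts beside windows of up to 15 CpGs. In S1pr1, on chromosome 3 from 115711501 to 115714200, the ranges were 1 to 11 and 10 to 94 counts and overlapped. In Phkg1, on chromosome 5 from 129873401 to 129875700, they were 2 to 9 and 11 to 80 counts. The remaining 4 lay 18257 bp from Wwc2, 64855 bp from Lbh, 94115 bp from Pard3 and 126342 bp from Lrig3.

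Members were spread over all autosomes, from 4.96% of the single-CpG windows of chromosome 11 to 7.51% of those of chromosome 10. On the scale of 1 Mb the spread was wider. Among 2409 bins with at least 50 such windows the median share was 5.69% (5th percentile 1.70%, 95th 13.2%), 7 bins held no member and 68 held 15% or more. The highest share was 33.3%, with 141 members of 424 windows, on chromosome 18 from 37000001 to 38000000, the megabase of the clustered protocadherin genes, and 139 of these members lay in gene bodies. The bin with the next most members, on chromosome 10 from 120000001 to 121000000 with Hmga2, had 123 of 706 (17.4%). On the same chromosome, 126000001 to 127000000 had 114 of 597, and 0 of these lay in a protein-coding gene. The bin on chromosome 18 holds 67 protein-coding genes and this one 3. How many of all single-CpG windows of these bins lay in gene bodies was not counted, so these counts are not set apart from the bins themselves.

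The 10 members whose intervals started highest all had 1 wildtype count. The window on chromosome 16 from 73904301 to 73904400, inside Robo2, an axon guidance receptor gene, had 1 wildtype and 111 knockout counts, a fold of 98.8 with an interval from 17.4 to 3937. Its adjacent windows, with 2 and 4 CpGs, had 3 and 98, and 2 and 100 counts. The low wildtype count was thus shared by the windows beside it, which can share its fragments. In Cyp4a30b, a cytochrome P450 gene, the member on chromosome 4 from 115454001 had 1 and 94 counts, and 434 bp from Jade1, a gene of a histone acetylation complex, that on chromosome 3 from 41555201 had 1 and 93.

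In Hmga2, the gene of a chromatin protein of the high mobility group, the member on chromosome 10 from 120397701 had 1 and 86 counts. Of the listed windows within 1 kb of these 10 members, the share at least 4-fold higher ran from 4 of 10 at the member in Tbc1d4 to 14 of 14 at those in Hmga2 and Kcnk2. In Tdrd6, a gene of the chromatoid body of spermatids, the member on chromosome 17 from 43628801 had 1 and 82 counts. Its adjacent windows had 1 and 94 counts with 4 CpGs, and 0 and 65 counts with 2 CpGs. In Kcnk2, a potassium channel gene, the member on chromosome 1 from 189260701 had 1 and 81, and in Tbc1d4, a gene of glucose transporter traffic, that on chromosome 14 from 101596901 had 1 and 84. The other 3 lay outside genes, nearest to Jak2, Krr1 and Slc24a2, with 84 to 92 knockout counts. All 10 had a dense window within 1 kb, 1 to 6 in number.

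Relative to genes, members were frequent at gene ends and scarce in gene bodies. Within 1 kb of an end of a protein-coding gene lay 4972 members, 9.01% (8.78 to 9.26%), against 4.01% of the other higher and 2.55% of the lower single-CpG windows. In a protein-coding gene but not within 1 kb of an end lay 28.7% of the members, 49.6% of the other higher and 47.8% of the lower windows. With the windows near ends counted as well, the shares in genes were 33.4%, 52.2% and 49.2%. Most members, 62.3% (61.9 to 62.7%), lay outside protein-coding genes and more than 1 kb from their ends, against 46.4% and 49.7% in the other classes.

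Other annotated features were also more common near members. In or within 1 kb of a long noncoding RNA gene lay 14.5% of the members, against 10.5% and 11.3%. Pseudogenes were that near for 6.40% of the members, against 2.61% of the other higher and 1.19% of the lower windows. Genes of transfer RNAs were near 78 members (0.141%), against 70 (0.0248%) and 39 (0.00673%) windows of the larger classes. Copies of a pseudogene or a transfer RNA gene can share reads, and the handling of multiple alignments was not stated in the sources used here.

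With strand taken from 20062 start sites of protein-coding genes on 18 autosomes (chromosome 18 is left out), 5.98% of 53050 members lay within 1 kb of a start site, against 1.25% of the other higher and 0.794% of the lower windows. The share of single-CpG windows that were members formed 2 shoulders around the start site. It was 5.10% at 3 kb upstream, 34.9% (32.5 to 37.4%) from 750 to 500 bp upstream, 20.4% (18.2 to 22.8%) in the first 250 bp of the gene and 29.7% (27.3 to 32.2%) from 500 to 750 bp downstream. It came back to 5.06% at 2 kb downstream, beside the 6.01% of all autosomal single-CpG windows. From 1 to 1.25 kb it was 23.7% upstream and 18.4% downstream.

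**Figure D3:**
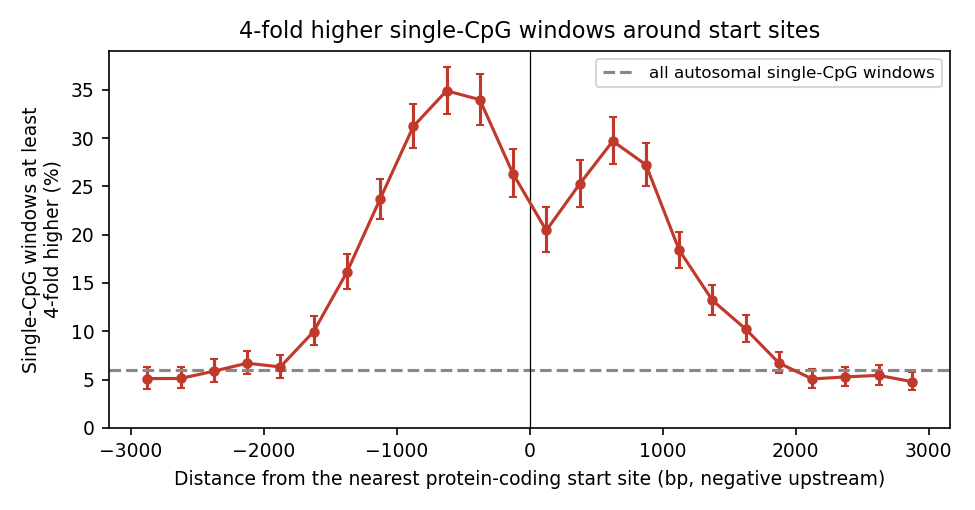
Percentage of autosomal single-CpG windows that were at least 4-fold higher in the knockout, in 250 bp steps from the nearest protein-coding start site (negative is upstream), with Clopper-Pearson intervals; the dashed line is the share over all autosomes, 6.01%. The share reaches 34.9% upstream and 29.7% downstream of the start site, with a dip to 20.4% just after it.

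At least 1 member lay at the ends of 3122 of the 13177 protein-coding genes with a single-CpG window there (23.7%), and at least 3 members at those of 518 (3.93%). The 20 genes with the most members, 6 or 7 each, are given by what their products do. Since the genes were ordered by this count, the values are descriptions. Hepacam, a cell adhesion gene of glia, on chromosome 9 from 37367356 to 37386572, had 7 members with 1 to 7 wildtype and 13 to 79 knockout counts, all 7 within 1 kb of its start site. Mobp, a myelin protein gene on chromosome 9, had 7 with 2 to 7 and 10 to 91 counts, in part at the start and in part at the other end. Over all single-CpG windows listed at their ends, 8 and 9 in number, the log2 ratios were 1.96 for Hepacam and 2.44 for Mobp, against 3.35 and 3.16 over the members that the rule chose.

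The next genes are ones with roles in germ cells or the embryo, a grouping made after their values were seen. Pou5f2, a POU domain gene of male germ cells on chromosome 13 from 78024902 to 78026296, had 7 members with 1 to 6 wildtype and 15 to 54 knockout counts. Zfp42, a marker of pluripotent cells also called Rex1, on chromosome 8, had 6 with 2 to 10 and 24 to 63 counts, and 5 of its 6 dense windows were at least 4-fold higher. Wnt8a, the gene of a signalling ligand of the embryo, on chromosome 18 from 34542327 to 34548061, had 7 with 1 to 4 and 9 to 52 counts. All 7 single-CpG windows listed at the ends of Pou5f2 and all 7 at those of Wnt8a were members, and 6 of 7 at those of Zfp42.

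Rsph6a, a radial spoke gene of the sperm tail on chromosome 7, had 6 members with 1 to 10 and 29 to 65 counts. Dnah8, the gene of a dynein heavy chain of the sperm tail on chromosome 17, had 6 with 1 to 3 and 15 to 68, and its 5 dense windows had medians of 2 and 73. Nlrp4f, of a family expressed in oocytes, on chromosome 13, had 6 with 2 to 8 and 20 to 67 counts. Rsph6a had 11 single-CpG windows at its ends, with a log2 ratio of 2.01 over all of them against 3.20 over its members, while all 6 of Dnah8 and all 6 of Nlrp4f were members.

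Genes known from other tissues follow, and after them Ddi1, which is not grouped by tissue here. Ankrd1 had 7 members with 2 to 9 wildtype and 10 to 52 knockout counts, and Lmod2 had 6 with 3 to 10 and 14 to 70. Krt28, a keratin gene of the hair follicle on chromosome 11, had 6 with 2 to 5 and 16 to 93, and Crhbp, the gene of the binding protein of corticotropin-releasing hormone on chromosome 13, had 6 with 1 to 11 and 14 to 84. Ifne had 7 with 1 to 9 and 11 to 54, and Cldn17 had 6 with 1 to 13 and 17 to 78. In Ddi1, a gene of a ubiquitin-binding protease on chromosome 9, 6 members had 1 to 13 and 9 to 76 counts, and these ranges overlapped although the rule parts the libraries within each window.

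The remaining genes were Zfp474 (7 members, 2 to 6 and 20 to 65 counts), Prr30 (6, 1 to 6 and 10 to 67), Cc2d2b (6, 1 to 7 and 19 to 90) and Ccdc24 (6, 1 to 3 and 11 to 26). Zfp474 and Ifne had no dense window at their ends, nor had Lmod2. Members were thus numerous at some genes that hold no dense listed window there.

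**Figure D4:**
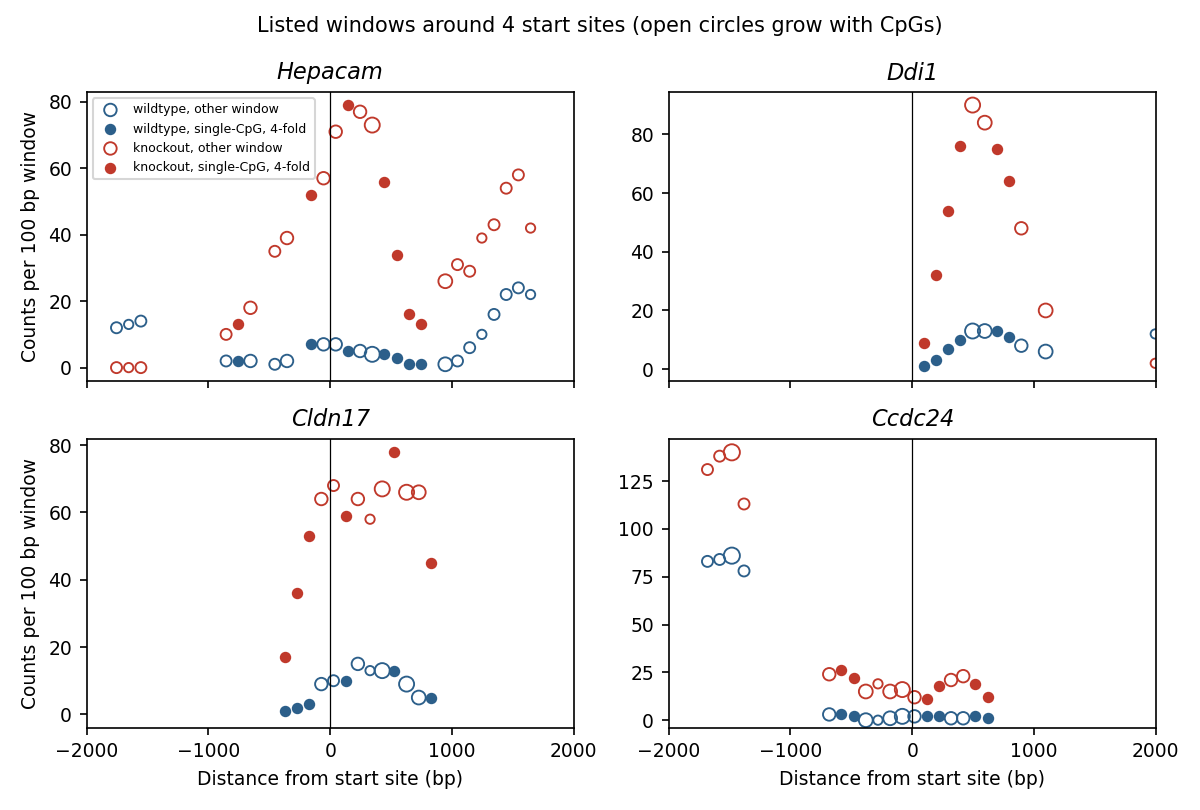
Counts per 100 bp window against distance in bp from the start site at Hepacam, Ddi1, Cldn17 and Ccdc24, 4 of the genes with 6 or more members within 1 kb of a start site, with wildtype in blue, knockout in red, members filled and other listed windows open with a size that grows with CpGs. At Hepacam the knockout counts climb from 13 to 79 and return to 13 over the members while the wildtype counts stay between 1 and 7, and at Ddi1 the members stand on both sides of a window of 90 knockout counts.

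Hoxa3, a homeobox gene of the anterior Hox group on chromosome 6 from 52169059 to 52213067, on the minus strand, had its 6 members at the end away from its start site, from 52168401 to 52170000. The wildtype counts were 1, 1, 3, 4, 4 and 2, and the knockout counts 37, 47, 59, 56, 62 and 62 in the same order. All 6 single-CpG windows listed at the ends of this gene were members, and its 5 dense windows had medians of 1 and 59 counts. No single-CpG window was listed at the end with its start site, so that end is not described here.

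Members were counted at the gene ends of 14 gene lists, with the windows that genes of a list share counted once. No test was made, and each list is set beside all protein-coding genes, of which 23.7% had a member, with 16.01% of the single-CpG windows at their ends being members and a median log2 ratio of 0.30 over all single-CpG windows of a gene. Of the germline genes known to carry methylation in somatic tissues, 31 of 38 had a member, and 63 of 125 single-CpG windows (50.4%) were members, with a median log2 ratio of 1.87. Pgk2, the phosphoglycerate kinase gene of spermatogenic cells, on chromosome 17, had 5 members of 5 windows, with wildtype counts of 10, 8, 4, 2 and 1 and knockout counts of 64, 46, 23, 15 and 11. The counts of both libraries declined in the same order along these neighbouring windows.

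Brdt, a bromodomain gene of meiotic and postmeiotic cells, on chromosome 5, had 4 members of 4 windows, with 6, 2, 3 and 4 wildtype and 33, 33, 66 and 75 knockout counts. Ctcfl, a germline paralogue of Ctcf, on chromosome 2, had 3 of 3, with 9, 16 and 11 and with 46, 74 and 69 counts. Its wildtype counts were the highest of the genes named from this list.

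Hox genes, which set position along the body axis, had a member in 15 of 24 genes and 27 members of 51 windows (52.9%), with a median log2 ratio of 1.94. Beside Hoxa3 these included Hoxc6, on chromosome 15, with 1, 4 and 3 wildtype and 40, 49 and 39 knockout counts, and Hoxd3, on chromosome 2, with 2, 8 and 11 and with 47, 47 and 56. Hoxa2, the neighbour of Hoxa3, had 3, 2 and 1 and 51, 10 and 13 counts. Other homeobox and developmental transcription factor genes had a member in 23 of 72 (31.9%) and 29 members of 150 windows (19.3%), with a median of 0.28, close to that of all genes. Foxo6, a forkhead gene on chromosome 4, had 3 members there with 6, 10 and 1 and with 49, 49 and 10 counts.

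The clustered protocadherins, cell surface proteins that give neurons an individual identity, had a member in 48 of 56 genes and 75 members of 116 windows (64.7%), with a median of 2.06. Their variable exons lie in rows on chromosome 18, and genes of the gamma cluster share their downstream end. The member from 37842301 to 37842400, with 7 wildtype and 38 knockout counts, was counted for both Pcdhgb4 and Pcdhga11. Genes that share a window are not independent, which limits the gene count and the median, while the share of windows counts it once. Pcdhb8, in the beta cluster, had 5 members with 4, 2, 3, 3 and 7 wildtype and 19, 18, 27, 28 and 42 knockout counts. Pcdhb11 had 4 with 3, 2, 1 and 3 and with 14, 10, 12 and 36. Over all 8 single-CpG windows at its ends the log2 ratio of Pcdhb8 was 1.37, against 2.65 over its members, while all 4 of Pcdhb11 were members.

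Imprinted genes whose promoters are methylated on the maternal copy had a member in 14 of 23, and 20 of 52 windows (38.5%) were members, with a median of 0.83. Mcts2, a retrogene on chromosome 2 that is expressed from the paternal copy, had 5 members of 5 windows, with 9, 1, 5, 4 and 2 wildtype and 49, 71, 54, 34 and 22 knockout counts, and its 7 dense windows were all at least 4-fold higher. Magel2, on chromosome 7, in the region deleted in Prader-Willi syndrome, had 4 of 4, with 1, 3, 2 and 1 and with 35, 28, 43 and 41 counts. In both genes every single-CpG window listed at the ends was thus a member. Of 4 genes at paternally methylated loci, 1 had a member, Dlk1, on chromosome 12, with 1 and 21 counts, and its other 2 single-CpG windows were not members.

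Lists of spermatogenesis lay closer to all genes. Spermatid genes had a member in 7 of 22 genes and 15 members of 56 windows (26.8%), with a median of 0.42. Among them H1f7, a linker histone of spermatids, on chromosome 15, had 8, 1 and 1 wildtype and 63, 73 and 33 knockout counts. Spermatogonial genes had a member in 6 of 17 and 11 members of 46 windows (23.9%), with a median of 0.12. Stra8, the meiotic entry gene on chromosome 6, had 4 members of 10 windows, with 1, 1, 1 and 5 and with 14, 18, 19 and 34 counts, while the log2 ratio over its 10 windows was 0.0047. The members of Stra8 thus stood beside single-CpG windows that were lower.

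Genes of the DNA methylation machinery had a member in 6 of 16, 9 of 37 windows (24.3%), with a median of 0.69. Of these 9 members, 3 were those of Ctcfl, which is also in the list of germline genes. Ctnnd1, the gene of p120 catenin, a partner of Kaiso, on chromosome 2, had 1 member with 6 and 77 counts, and Mbd2, whose protein domain served for the capture, had 1 on chromosome 18 with 9 and 49. Keratins and keratin-associated genes had a member in 26 of 80 (59 of 234 windows, 25.2%, median 0.38), and zinc finger genes in 69 of 237 (108 of 531 windows, 20.3%, median 0.48). These lists had shares somewhat above the 16.01% of all genes.

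The large families of chemosensory receptors and the ribosomal protein genes were at or below that share. Olfactory receptor genes had a member in 58 of 355, with 112 members of 771 windows (14.5%), and a median log2 ratio of -1.01 over all their single-CpG windows. Olfr317, on chromosome 11, nevertheless had 3 members with 5, 24 and 22 wildtype and 73, 116 and 114 knockout counts. Vomeronasal receptor genes had a member in 4 of 39 (5 of 77 windows, 6.49%, median -1.45), and genes of cytosolic ribosomal proteins in 8 of 49 (9 of 108 windows, 8.33%, median -0.73). In these 3 lists the single-CpG windows were on the median lower in the knockout library. The share of members at olfactory receptor genes (14.5%) was nonetheless close to the 16.01% of all genes. Reads may be divided among near-identical copies in these families.

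**Figure D5:**
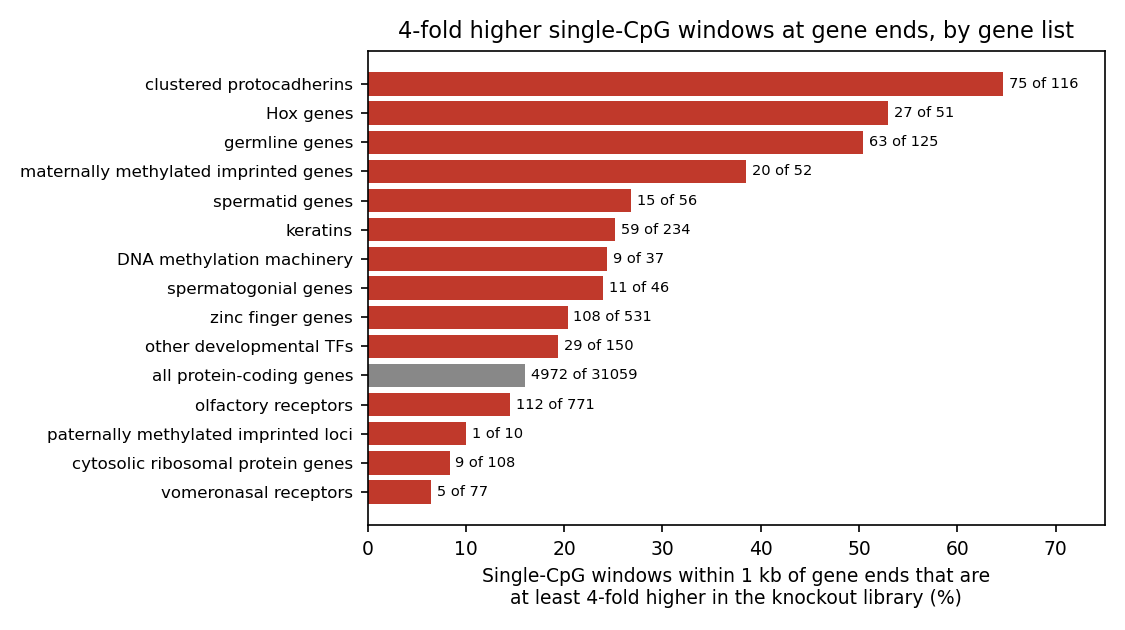
Percentage of single-CpG windows within 1 kb of gene ends that were at least 4-fold higher in the knockout, for 14 gene lists and for all protein-coding genes, as bars with the number of members and of windows beside them. Clustered protocadherins (64.7%), Hox genes (52.9%) and germline genes (50.4%) stand highest, and vomeronasal receptors (6.49%) lowest, beside 16.01% for all genes.

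The sequence of a window could be read where it lay in 1 of 31396 RefSeq promoter spans of 300 bases, 250 before and 50 after a start site. In all 7834 listed windows there with their next base, the CpG count of the table equalled the number of CpGs that start in the window. The 481 members among them had a median GC content of 48% (quartiles 43 and 53), the same median as the 681 other higher and the 1067 lower single-CpG windows there. Base composition in these promoter windows did not part the classes by their medians. The sequence TCCTGCNA, on both strands, was in 8 of the members (1.66%, 0.721 to 3.25%), in 9 of the other higher (1.32%) and in 17 of the lower windows (1.59%). These intervals overlap, and 2.10% of all listed windows in the spans and 4.99% of the longer spans held it.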

How the data were processed

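The 2 libraries, 1 per group, share 1 deposited table of 100 bp windows with MEDIPS column names, per the file headers. Fragments were bound by the MBD2 domain and sequenced on Illumina, per the labels. Bowtie2 2.2.6, edgeR and mm10 are named in the submitters' processing notes; the extension of reads was not stated in the sources used here. The deposited counts are whole reads per window, the deposited RPKM scales them to window length and library reads (87710791 wildtype, 98549116 knockout), and the deposited relative methylation score is the authors' own. All 2537435 rows had a deposited p-value of at most 0.05, 10 or more counts over both libraries and 1 or more CpGs. The authors' deposited log2 fold change, coded wildtype over knockout, gave no value here. Another 10 columns of values per sample or group were not used.

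Folds are ratios of deposited RPKM, knockout over wildtype, with 95% intervals from the conditional binomial (exact Clopper-Pearson). PCR copies are not independent molecules, and neighbouring windows share fragments, so intervals of shares are too narrow. Distances run between window starts. Genes are RefSeq spans of GRCm38.p6, and 20062 start sites came from its promoter table, which is not complete. The members and lists were chosen with earlier results of these data known. Text names the 15 clusters with the most members, the 10 members with the highest interval starts, the 20 genes with the most members at their ends (no predicted or Riken symbols), up to 4 genes per list, and Zbtb33; 1 cluster is not reported here. Promoters are printed for 4 of the 6 that the rule took, those whose start site is the outer end of the gene, without the bases after it. Functions were tested on simulated data. Python 3.11.15, pandas 2.3.3 and scipy 1.17.1 were used, and edgeR 4.0.16 for TMM factors. Alternatives changed the scaling, fold, wildtype minimum, p, distances and gaps.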

Additional observations from a re-analysis of the deposited data

Results flagged for a closer look

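Single-CpG windows at least 4-fold higher also occurred outside the autosomes. Chromosome X held 2214 of 19277 (11.5%), with median counts of 2 in wildtype and 19 in the knockout, and 41.6% had a dense window within 1 kb. Chromosome Y held 816 of 4673 (17.5%), with medians of 2 and 15 counts, and 18.8% had a dense window that near. Another 8971 autosomal single-CpG windows had 0 wildtype counts and so fell outside the rule. They had 10 to 87 knockout counts (median 15), and 50.1% lay within 1 kb of a member. There is no control sample beside the wildtype library, and the difference between chromosomes was not tested.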

How the results depend on the processing

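The 55160 members became 156014 with scaling within the CpG class, 23836 with a fold of 8, 34860 and 5463 with wildtype minimums of 3 and 10, and 36142 with only intervals starting above 2, a choice made after seeing the data. The share with a dense window within 1 kb, 61.1%, was 57.3% with scaling within the class, 61.9% with autosomal counts and with TMM, 59.8% and 61.6% with folds of 3 and 8, 67.3% and 79.4% with minimums of 3 and 10, 65.1% with a deposited p under 0.001 and 69.1% with intervals above 2. By distance it was 31.5% (up to 200 bp, chosen after seeing the data), 52.6% (500 bp), 66.4% (2 kb) and 35.3% (more than 500 bp up to 2 kb), and 95.01% for 3 or more CpGs. The share in clusters of 3 or more, 43.6%, was 42.1%, 39.0% and 40.7% under the same scalings, 48.0% and 23.7% with the folds, 32.8% and 5.71% with the minimums, 40.6% with the stricter p, 36.7% with intervals above 2, and 32.9% and 47.5% with gaps of 500 bp and 2 kb. The share at gene ends, 9.01%, was 6.19% within the class, 9.27% with autosomal counts, 8.50% and 10.1% with the folds, 8.20% and 6.81% with the minimums, and 4.24% and 14.4% with 500 bp and 2 kb.

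Of 39 recomputed differences between members and other higher windows, 34 kept their direction. The share in clusters turned to -15.0 percentage points with a fold of 8, to -1.88 and -28.0 with minimums of 3 and 10, and to -0.53 with gaps of 2 kb, and the share with dense windows to -2.29 at 200 bp. The cause was not tested. Relative to library reads, autosomal counts moved all log2 ratios by -0.27, TMM by -0.17 and scaling within the class by 1.23. No paired analysis was possible because each group has 1 library.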
